A study of Homo sapiens with 12 samples.

Results

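The genes described here are the cytochrome P450 enzymes and the enzymes that join their products to glucuronic acid, sulfate or glutathione, as listed for the hepatocellular carcinoma cell lines HepG2 and LM3. Members were chosen by symbol: any CYP gene named by family, subfamily and number, with CYP51A1 and CYP7A1 left out, and any UGT, SULT or cytosolic and mitochondrial GST gene. The rule finds 42 of the 8842 listed genes: 19 CYP, 7 UGT, 5 SULT and 11 GST genes. RefSeq holds 106 protein-coding genes whose symbols match, and 41 of them are members; the remaining member, GSTT2, is classed there as a transcribed pseudogene. The study knocked down the long noncoding RNA FASRL with siRNA. There are 4 groups of 3 libraries: HepG2 with the control siRNA (HepG2 siNC), HepG2 with the siRNA to FASRL (HepG2 siFASRL), LM3 siNC and LM3 siFASRL, all harvested 48 h after transfection. RNA of whole cultures was selected by poly(A) and sequenced. FASRL itself is not among the listed genes, so the depth of its knockdown is not analysed here.

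Cytochrome P450 enzymes insert oxygen into drugs, pollutants, fatty acids, sterols and vitamins, with electrons passed on by reductases and ferredoxins. The UGT, SULT and GST enzymes then attach a polar group from UDP-sugars, the sulfate donor PAPS or glutathione, which makes the product easier to export. Hepatocytes carry most of this work in the body, and liver tumor lines retain it to very different extents.

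Values are levels per gene as the authors normalized them with RSEM. Whether they are FPKM or TPM, both per unit of gene length, is not stated. Sums and comparisons between different genes assume such a scaling by length. The 8842 genes are a subset of all genes and how they were chosen is not stated. Among genes with a mean level of at least 5, effects between -0.20 and -0.04 on the log2 scale make up 0.079% in HepG2 and 9.74% in LM3. The list thus holds almost no such genes with small falls in HepG2, and may have been selected by the HepG2 comparison itself. Such a selection could raise the counts of separated or called genes in HepG2 and lower their adjusted p. It could also widen the contrast of these counts with LM3. Counts and shares below therefore refer to listed genes. In these bulk libraries fewer cells with an RNA and less of that RNA in each cell cannot be told apart. The paper says that its cell line experiments were repeated, but does not say that these replicates came from separate cultures. The p-values therefore measure the spread between these libraries.

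The hepatocyte label was compared with 12 marker genes, of which 10 are listed. Their levels summed to 4923, 4858 and 4451 in the HepG2 siNC libraries and to 2582, 2599.7 and 2646 in the HepG2 siFASRL libraries, with SERPINA1 the most abundant in each. ALB stood at 851, 805 and 789.8 under siNC and at 233, 231 and 241 under siFASRL. In LM3 the same list summed to 0.41, 5.15 and 3.43 under siNC and to 1.27, 0.11 and 0.21 under siFASRL. HepG2 thus carries hepatocyte RNAs in every library, while in LM3 they are at or near 0, with TTR listed at 0 in 5 of the 6 libraries. The LM3 traces rise and fall together: SERPINA1 read 0.08, 1.73 and 1.26 in the LM3 siNC libraries and KRT19, at 122 in HepG2 siNC, read 0.09, 0.48 and 0.51. In the LM3 siFASRL libraries SERPINA1 read 0.37, 0.03 and 0.03. The source of these traces was not determined. Member levels below about 1 in LM3 are read with that in mind.

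Of the cholangiocyte list, 4 of 5 genes are listed and their sum was 515, 554 and 508 in HepG2 siNC, 1040.4, 1095 and 1054 in HepG2 siFASRL, 188, 213 and 216 in LM3 siNC and 357, 368 and 359 in LM3 siFASRL, with KRT7 the most abundant in each. Of the fibroblast and stellate list, 5 of 6 are listed, with mean sums of 67.6 in HepG2 siNC, 46.4 in HepG2 siFASRL, 14.6 in LM3 siNC and 5.45 in LM3 siFASRL, while ACTA2 in that list rises in HepG2 (10.7 to 17.4, log2 fold change 0.65). Of the endothelial list only VWF is listed, at 0.02 to 0.35 over all libraries, and of the leukocyte list only CD68, at 13.4 to 54.3. The hepatocyte sum falls with knockdown in HepG2, though APOA2 in that list rises (log2 fold change 0.27). The cholangiocyte sum rises in HepG2 through KRT7 and KRT19 alone, while EPCAM (-0.9964) and SOX9 (-0.39) fall, and in LM3 through KRT7 alone, while the means of EPCAM, SOX9 and KRT19 fall. Their part in the results on members was not tested.

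The heatmap shows each member in each library. The summed level of the 42 members was 609.6, 634 and 611 in HepG2 siNC and 378, 394 and 384 in HepG2 siFASRL. In LM3 it was 1596, 1838 and 1802 under siNC and 1713, 1893 and 1792 under siFASRL. The sum fell in every HepG2 siFASRL library, and in LM3 the groups overlap. GSTP1 alone makes up 80.2 to 89.8% of the LM3 sums. Without GSTP1 the LM3 libraries read 315, 304 and 311 under siNC and 186, 194 and 188 under siFASRL, and the HepG2 libraries 415, 428 and 414 against 261, 262 and 257. This sum without GSTP1 is lower in every siFASRL library of both lines, as the plot of summed levels shows. In LM3 most of its drop is GSTM4 (mean 105.5 to 46.3) and GSTK1 (79.6 to 52.6), and single members differ, as given below.

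**Figure D1:**
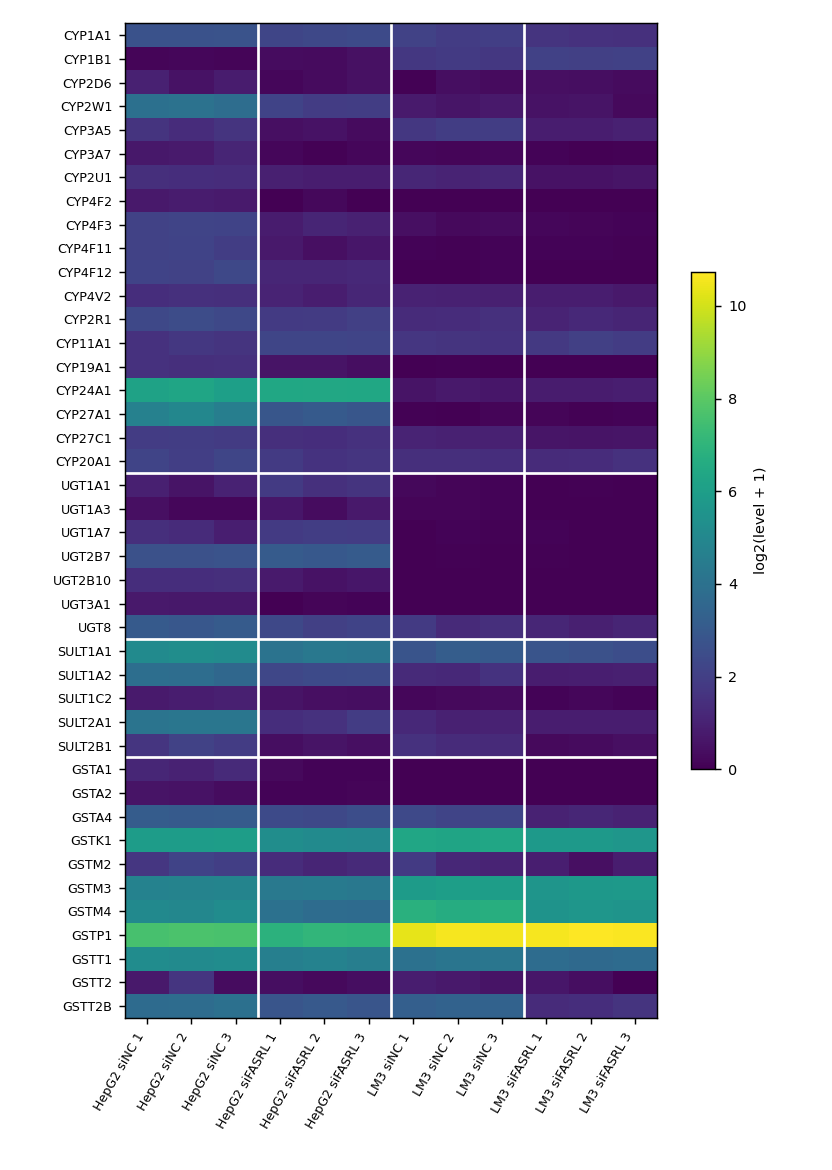
Levels of the 42 members in the 12 libraries, as log2(level + 1), ordered by role within CYP, UGT, SULT and GST genes.

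**Figure D2:**
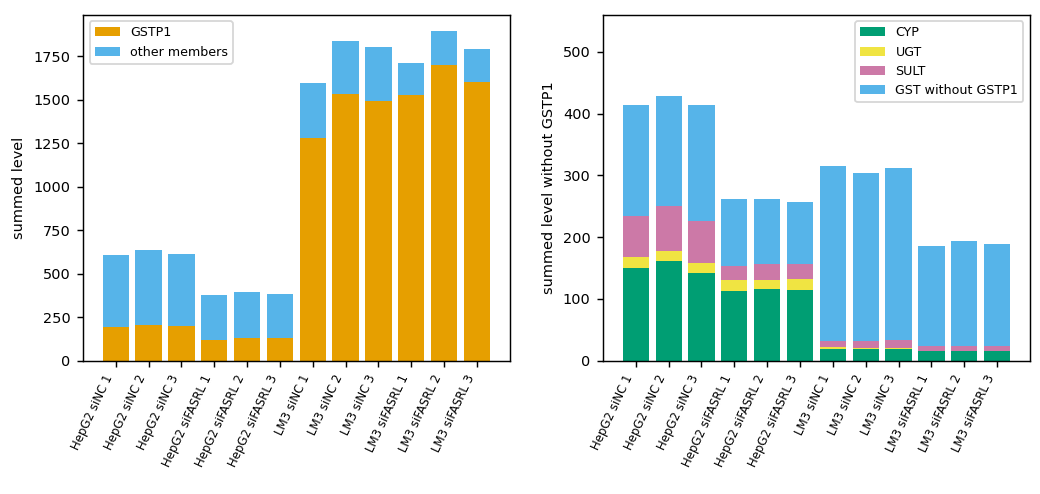
Summed level of the members in each library. Left, GSTP1 and the other members. Right, the other members by family.

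By family, the 19 CYP genes summed to a mean of 151 in HepG2 siNC and 114 in HepG2 siFASRL, and to 18.6 and 15.04 in LM3. The 5 SULT genes fell from 68.8 to 24.5 in HepG2 and from 11.5 to 7.38 in LM3. The 7 UGT genes stood at 17.3 and 16.7 in HepG2, a sum in which UGT8 fell and UGT2B7 rose, and at 2.17 and 1.17 in LM3. The 11 GST genes fell from 381 to 230.0 in HepG2, and in LM3 they stood at 1713 and 1776.

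Effects were tested with limma on log2(level + 1) for genes at 1 or more in at least 3 of the 6 libraries compared, with p-values adjusted over all of them. A gene is called when its log2 fold change is at least 1 in size and its adjusted p is under 0.05. Of the 42 members, 33 passed this filter on low values in HepG2 and 19 in LM3. Of those, 7 in HepG2 and 4 in LM3 passed through 1 group alone, which biases them toward a difference. For that reason the groups were also compared over all 42 members with no filter: in HepG2, 34 members are lower in every siFASRL library than in every siNC library, 6 are higher (CYP1B1, CYP11A1, CYP24A1, UGT1A1, UGT1A7 and UGT2B7) and 2 overlap. Over all 8842 listed genes those shares are 46.3% lower and 43.9% higher, against 81.0% and 14.3% of members. In LM3, 22 members are lower in every siFASRL library, 3 are higher (CYP1B1, CYP11A1 and CYP24A1) and 17 overlap, several of them at or near 0; over all listed genes the shares are 43.2% and 30.5%.

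In HepG2, 10 of the 33 tested members are called lower after knockdown, beside 6.79% of the 8144 genes tested, and 0 are called higher, beside 3.61%. limma gives 5 members above 0 at an unadjusted p under 0.05. By adjusted p alone 28 are lower and 5 higher, where the background is 44.3% and 44.8%. Of the 10, 3 (CYP3A5, CYP4F11 and SULT2B1) passed the filter through siNC alone, so the selection favors their calls; of the 22 members at 1 or more in all 6 libraries 6 are called lower. The median effect of tested members is -0.78, against 0.10 over all genes tested; over those 22 it is -0.68. In LM3, 4 of 19 tested members are called lower, beside 6.2% of the 7483 genes tested, and 0 are called higher, beside 1.42%, with 2 above 0 at an unadjusted p under 0.05. By adjusted p alone 15 are lower and 2 higher, against 43.5% and 33.9%. The median is -0.45, against -0.06 over all genes tested, and -0.34 over the 13 at 1 or more in all 6 libraries, 3 of which are called lower. Over all 42 members with no filter it is -0.17, against -0.06 over all listed genes. Over the 19 tested members under quantile normalization it is -0.24, against 0.03 over the genes tested. Scaling by the median of ratios shifts LM3 siFASRL against siNC by 0.10, so LM3 effects near 0 depend on the scale.

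**Figure D3:**
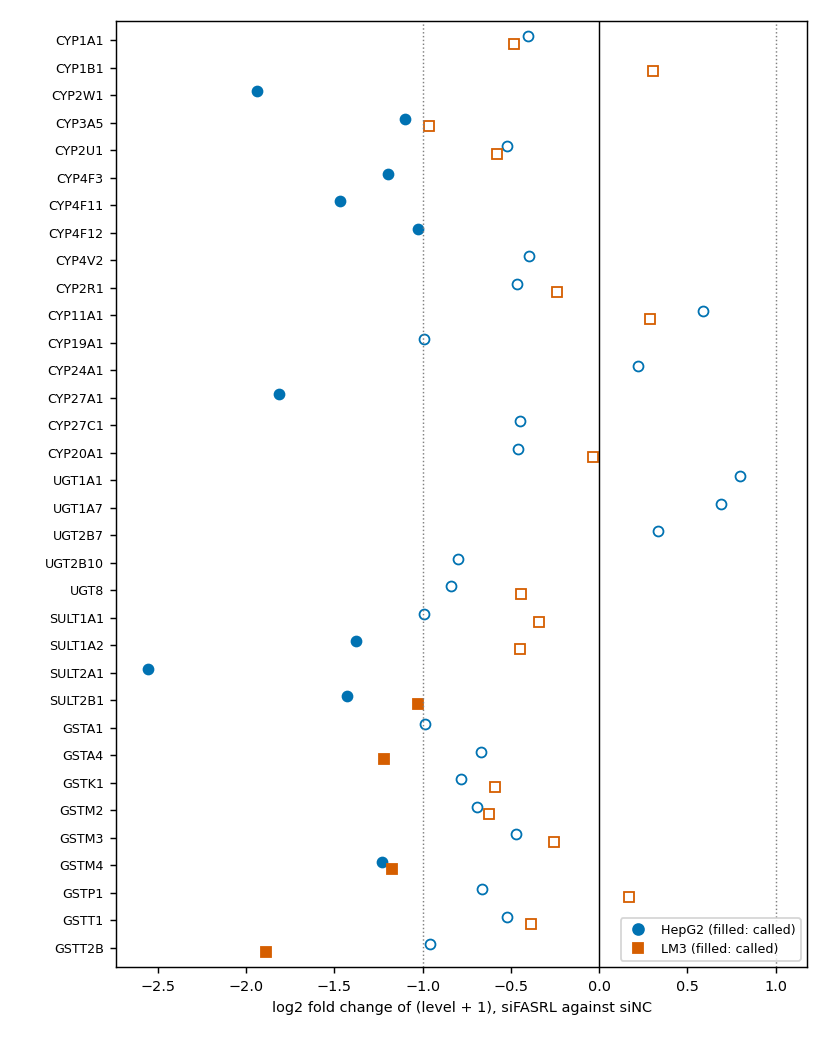
Log2 fold change after knockdown for each member tested in HepG2 (circles) or LM3 (squares). Filled symbols are called. Dotted lines mark a change of 1 in size.

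Among the enzymes of foreign compounds, CYP2W1, a P450 of fetal gut and of tumors, had the largest fall on the log2(level + 1) scale. It read 14.7, 15.3 and 13.4 in HepG2 siNC and 3.51, 2.78 and 2.84 in HepG2 siFASRL. The groups do not overlap, and 21.0% of the siNC mean remains, more than the 18.6% of CYP3A5 and 13.3% of CYP3A7, which are listed at lower levels (log2 fold change -1.94, adjusted p 7.06e-08). In LM3 it was 0.71, 0.53 and 0.67 under siNC and 0.42, 0.48 and 0.20 under siFASRL, lower in each siFASRL library but below the filter. CYP3A5, which oxidizes a wide range of drugs, fell in HepG2 from 2.10, 1.58 and 2.07 to 0.36, 0.45 and 0.26. It fell in LM3 from 2.31, 2.86 and 2.84 to 0.83, 0.81 and 1.0. The libraries separate in each line, with log2 fold changes of -1.10 in HepG2 (adjusted p 1.94e-06), which is called, and -0.96 in LM3 (adjusted p 6.91e-06), which falls short of the fold threshold. CYP3A5 passed the HepG2 filter through siNC alone, and under quantile normalization its HepG2 effect is -0.78, not called. With a pseudocount of 0.1 the HepG2 effect is -2.15. Leaving out LM3 siFASRL replicate 3 or LM3 siNC replicate 1 takes the LM3 effect to -1.01 or -1.04, past the threshold, a pseudocount of 0.1 takes it to -1.498, also past it, and quantile normalization to -0.57.

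CYP1A1, the inducible oxidase of polycyclic aromatic hydrocarbons, has the highest mean of the CYP genes in LM3 siNC. Its levels were 3.33, 2.79 and 3.01 there and 2.02, 1.87 and 1.80 in LM3 siFASRL, and 5.61, 5.61 and 5.76 in HepG2 siNC and 3.76, 4.01 and 4.36 in HepG2 siFASRL. It is lower in all siFASRL libraries of both lines, by smaller steps than the fold threshold (-0.48 in LM3 and -0.40 in HepG2 on the log2 scale), which shrink to -0.08 and -0.18 under quantile normalization. CYP1B1, which hydroxylates estrogens and procarcinogens, moved the other way, from 2.35, 2.49 and 2.32 to 3.22, 3.11 and 3.22 in LM3. All LM3 siFASRL libraries lie above all siNC libraries (0.30, adjusted p 4.60e-04, or 0.68 under quantile normalization); in HepG2 it was at 0.12 to 0.40 and not tested. CYP3A7, the fetal liver form of the CYP3A group, was at 0.61 to 1.18 in HepG2 siNC and 0.05 to 0.15 in HepG2 siFASRL. CYP2D6, an oxidase of many basic drugs, was at 0.44 to 0.97 and 0.13 to 0.40. Neither passed the filter in either line, and CYP3A7 and CYP2D6 share 39.8% and 34.4% of their 50-base stretches with other genes, so how reads were split is uncertain.

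**Figure D4:**
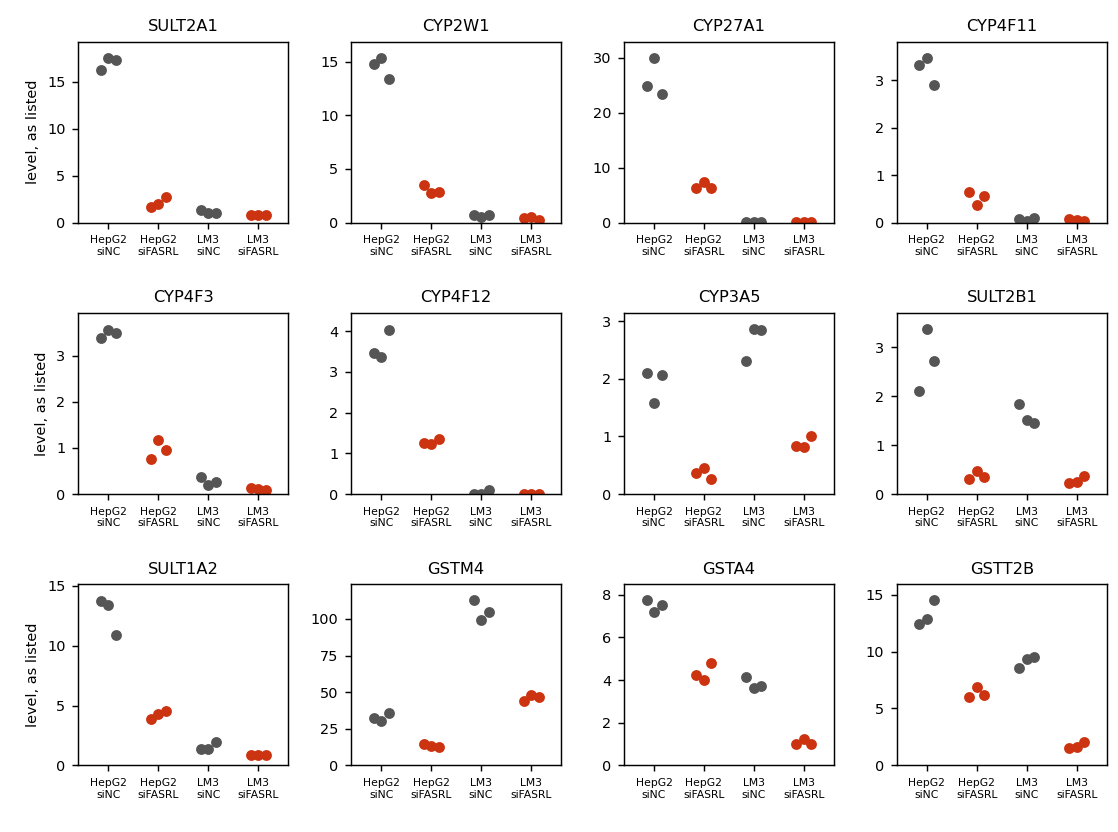
Level of each member called lower after knockdown in HepG2 or LM3, in every library. Each axis starts at 0.

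The CYP4F genes hydroxylate the ends of fatty acids, leukotrienes and vitamin K. Each listed one was lower in every HepG2 siFASRL library than in every HepG2 siNC library. CYP4F11 went from 3.31, 3.46 and 2.90 to 0.65, 0.37 and 0.56. CYP4F3 went from 3.37, 3.56 and 3.49 to 0.75, 1.16 and 0.96, and CYP4F12 from 3.46, 3.37 and 4.03 to 1.24, 1.22 and 1.34. In none of the 3 genes do the groups overlap, and 16.3%, 27.5% and 35.0% of the siNC means remain. The log2 fold changes are -1.47 for CYP4F11 (adjusted p 2.90e-07), -1.198 for CYP4F3 (adjusted p 6.61e-07) and -1.02 for CYP4F12 (adjusted p 7.12e-07). CYP4F11 passed the filter through siNC alone. Without HepG2 siNC replicate 3 the CYP4F12 effect is -0.96, short of the threshold, and under quantile normalization CYP4F12 (-0.72) and CYP4F3 (-0.89) are not called. CYP4F2 was at 0.68 to 0.76 in HepG2 siNC and 0.02 to 0.19 in HepG2 siFASRL, below the filter. It shares 11.9% of its 50-base stretches with CYP4F3, so reads may be split between them; the sum of CYP4F2 and CYP4F3 went from 4.05, 4.32 and 4.20 to 0.77, 1.35 and 0.98.

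In LM3 the CYP4F genes are close to absent. CYP4F3 was at 0.36, 0.20 and 0.25 under siNC and 0.13, 0.10 and 0.08 under siFASRL. CYP4F11 stayed between 0.04 and 0.09, and CYP4F12 was listed at 0 in 5 of the 6 LM3 libraries. Other fatty acid hydroxylases were singled out after their values were seen. CYP2U1 fell from 1.70, 1.67 and 1.58 to 0.91, 0.83 and 0.79 in HepG2 and from 1.21, 1.12 and 1.2 to 0.43, 0.43 and 0.51 in LM3, with siNC alone above 1 in both. CYP4V2 stood at 62.2% of siNC in HepG2 and at 75.4% in LM3, where it was below the filter and not tested. Both genes separate the groups without reaching the fold threshold in HepG2, where the effects are -0.52 and -0.40 and shrink to -0.1850 and -0.06 under quantile normalization. With a pseudocount of 0.1 the HepG2 effects are -0.89 and -0.65. The LM3 effect of CYP2U1 is -0.58, or -0.24 under quantile normalization and -1.2, past the threshold, with a pseudocount of 0.1.

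Of the sterol, steroid and vitamin enzymes, CYP27A1, the mitochondrial sterol hydroxylase of bile acid synthesis, stood at 24.9, 29.9 and 23.4 in HepG2 siNC and at 6.38, 7.31 and 6.38 in HepG2 siFASRL. All siFASRL libraries lie below all siNC libraries, with 25.7% remaining (-1.81, adjusted p 1.81e-07). Every LM3 library has it at 0.02 to 0.10. CYP24A1, which inactivates vitamin D, is the most abundant CYP in HepG2, at 72.4, 78.3 and 65.8 under siNC and 83.0, 85.2 and 83.7 under siFASRL. It is one of the members that rose: each siFASRL library is above each siNC library, by 0.22 on the log2 scale (adjusted p 0.0130), or by 0.06 under quantile normalization. In LM3 it was at 0.49, 0.67 and 0.55 under siNC and 0.78, 0.77 and 0.86 under siFASRL, below the filter and again higher in each siFASRL library. With CYP24A1 rising and most other CYP genes falling, its share of the CYP sum in HepG2 went from 46.6 to 48.6% under siNC to 73.1 to 73.9% under siFASRL.

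The remaining enzymes of this kind were picked out after their values were seen. CYP2R1, a vitamin D hydroxylase, fell to 65.8% of siNC in HepG2 and 75.2% in LM3; its effects of -0.47 and -0.24 become -0.21 and 0.16 under quantile normalization. CYP11A1, which cleaves the cholesterol side chain, rose from 1.90, 2.32 and 2.10 to 3.69, 3.71 and 3.58 in HepG2. It rose in LM3 from 2.27, 2.02 and 1.96 to 2.47, 3.08 and 2.75. The groups separate in each line, with effects of 0.59 (adjusted p 1.61e-05) and 0.29 (adjusted p 0.0058), or 0.88 and 0.67 under quantile normalization. CYP19A1, the aromatase, fell in HepG2 from 1.88, 1.75 and 1.83 to 0.47, 0.46 and 0.33. That is 23.1% of siNC with a log2 fold change of -0.99, just inside the fold threshold, and it passed the filter through siNC alone. Without HepG2 siFASRL replicate 1, HepG2 siFASRL replicate 2 or HepG2 siNC replicate 2 it is -1.02, -1.01 or -1.01, past the threshold, and with a pseudocount of 0.1 it is -1.90. LM3 libraries have it at 0 to 0.03. CYP27C1, a retinoid desaturase, fell to 63.5% of siNC in HepG2 (-0.45, or -0.10 under quantile normalization) and stood at 49.8% in LM3, below the filter and not tested. CYP20A1, with no settled substrate, fell to 64.98% in HepG2 (-0.46, or -0.16 under quantile normalization). In LM3 its groups overlap (-0.03), and that effect turns to 0.03 with median-of-ratios scaling and 0.37 under quantile normalization. It also turns to 0.01 without LM3 siFASRL replicate 1, and is -0.11 without LM3 siFASRL replicate 3.

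The UGT genes moved in different directions in HepG2. UGT8, which builds galactosylceramide and not drug conjugates, has the highest UGT mean under siNC in each line. It fell in HepG2 from 7.24, 6.60 and 7.42 to 4.03, 3.11 and 3.46. It fell in LM3 from 2.55, 1.40 and 1.76 to 1.22, 0.92 and 1.19. The groups separate in each, at -0.84 (adjusted p 7.89e-06) and -0.44 (adjusted p 0.0133). The LM3 effect is -0.29 without LM3 siNC replicate 1, which is the highest, and -0.04 under quantile normalization. With a pseudocount of 0.1 it is -0.70. UGT2B7, which conjugates morphine and steroids, rose from 5.41, 5.36 and 5.72 to 7.36, 6.82 and 7.39 in HepG2, and thereby passed UGT8 as the most abundant UGT there (0.33, adjusted p 3.59e-04, or 0.52 under quantile normalization). LM3 libraries list it at 0 or 0.03. UGT2B10, which acts on amines such as nicotine, fell from 1.68, 1.67 and 1.74 to 0.69, 0.42 and 0.55 in HepG2, passing through siNC alone, and in LM3 it was listed at 0 in 5 libraries and at 0.02 in the other. With a pseudocount of 0.1 its HepG2 effect goes from -0.80 to -1.48, past the threshold, and under quantile normalization to -0.48. It shares 30.9% of its stretches with other genes, so its reads may be split too.

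UGT1A1, UGT1A3 and UGT1A7, singled out after their values were seen, come from 1 locus on chromosome 2, with separate first exons and shared later exons. UGT1A1, the bilirubin enzyme, rose in HepG2 from 0.91, 0.50 and 1.01 to 2.52, 1.80 and 2.08. UGT1A7, which conjugates phenols, rose from 1.70, 1.49 and 0.86 to 2.57, 2.89 and 2.79. Their groups do not overlap, and their effects of 0.80 (adjusted p 1.31e-04) and 0.69 (adjusted p 4.14e-04) are below the fold threshold. They pass it with a pseudocount of 0.1 (1.34 and 1.02) and under quantile normalization (1.0955 and 1.0017). UGT1A3, a bile acid conjugator, was at 0.34, 0.14 and 0.13 and then 0.55, 0.28 and 0.66, with overlap and below the filter. UGT1A1 shares 49.4%, UGT1A3 79.3% and UGT1A7 40.9% of its 50-base stretches with other genes, so how reads were split among them is uncertain. Their sum went from 2.95, 2.13 and 2.0 to 5.64, 4.97 and 5.53, 228% of siNC. In LM3 the sum was 0.29, 0.28 and 0.17 under siNC and 0.07, 0.05 and 0 under siFASRL. UGT3A1, which uses UDP-N-acetylglucosamine, was at 0.60 to 0.66 in HepG2 siNC, at 0.02 to 0.11 in HepG2 siFASRL and at 0 to 0.02 in LM3.

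SULT2A1, which sulfates dehydroepiandrosterone and bile acids, shows the largest fall of any tested member in HepG2 on the log2(level + 1) scale. It read 16.2, 17.5 and 17.4 in siNC and 1.61, 1.93 and 2.77 in siFASRL. No siFASRL library comes near the siNC levels, and 12.3% of the siNC mean remains, against 10.3% for GSTA1 at lower levels (-2.56, adjusted p 9.92e-08). In LM3 it was at 1.35, 0.98 and 1.06 under siNC and 0.83, 0.83 and 0.80 under siFASRL, which separates the groups below the filter. SULT2B1, which sulfates cholesterol and pregnenolone, is called in both lines. It fell from 2.11, 3.37 and 2.72 to 0.31, 0.48 and 0.34 in HepG2 and from 1.85, 1.52 and 1.45 to 0.22, 0.24 and 0.37 in LM3. The siNC libraries alone are above 1 in each line; the effects are -1.43 (adjusted p 2.12e-06) and -1.03 (adjusted p 4.76e-06), with 13.8% and 17.2% remaining. Without LM3 siFASRL replicate 1 or LM3 siNC replicate 1 the LM3 effect is -0.9968 or -0.9626, short of the threshold. Median-of-ratios scaling (-0.9874) and quantile normalization (-0.72) also take the LM3 call away. With a pseudocount of 0.1 the effects are larger, at -2.56 in HepG2 and -2.19 in LM3.

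SULT1A1, which sulfates phenols, has the highest SULT mean in each line. It fell from 34.2, 37.4 and 34.8 to 15.9, 18.4 and 17.8 in HepG2, and in LM3 it was at 5.81, 7.91 and 7.31 and then 5.88, 5.25 and 4.78. The HepG2 groups separate (-0.99, adjusted p 1.01e-06) just inside the fold threshold, and the LM3 groups overlap (-0.34, adjusted p 0.0161, or -0.12 under quantile normalization). Its neighbor SULT1A2 fell from 13.8, 13.4 and 10.9 to 3.90, 4.33 and 4.52 in HepG2, which is called (-1.38, adjusted p 6.37e-07). In LM3 SULT1A2 went from 1.40, 1.38 and 1.94 to 0.84, 0.89 and 0.90 (-0.45, adjusted p 0.0011), passing through siNC alone, or -0.06 under quantile normalization. SULT1A2 shares 22.05% of its 50-base stretches with other genes, chiefly SULT1A1 at 19.0%, so the split between them is uncertain; their sum went from 47.95, 50.9 and 45.7 to 19.8, 22.7 and 22.3 in HepG2. Leaving out HepG2 siFASRL replicate 2, HepG2 siFASRL replicate 3, HepG2 siNC replicate 1 or HepG2 siNC replicate 3 moves SULT1A1 past the fold threshold, to -1.03, -1.01, -1.02 and -1.0042, and so do a pseudocount of 0.1 (-1.0278) and quantile normalization (-1.0434). SULT1C2, another sulfotransferase of phenols, was at 0.73 to 0.92 in HepG2 siNC, 0.30 to 0.46 in HepG2 siFASRL and 0.24 or less in LM3.

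Among GST genes, GSTM4 of the mu class is called in both lines. It fell from 32.7, 30.3 and 36.1 to 14.9, 12.9 and 12.7 in HepG2 and from 113, 99.03 and 105 to 44.0, 48.3 and 46.5 in LM3. The groups are far apart in each, with 40.8% and 43.9% remaining and effects of -1.23 (adjusted p 7.66e-07) and -1.17 (adjusted p 1.32e-06). GSTM2, next to it, fell from 2.26, 3.46 and 2.93 to 1.55, 1.16 and 1.45 in HepG2; in LM3 it was at 2.49, 1.31 and 1.12 and then 0.88, 0.36 and 0.82. It separates the groups in both lines (-0.69 and -0.63) with widely spread libraries, and passed in LM3 through siNC alone; the LM3 effect is -0.41 without LM3 siNC replicate 1 and -1.14, past the threshold, with a pseudocount of 0.1, and quantile normalization gives -0.36 and -0.25. GSTM2 and GSTM4 share 16.0% and 15.5% of their stretches with other genes, GSTM1 among them. GSTM3, whose stretches are nearly all its own, fell from 26.4, 26.5 and 27.4 to 19.1, 19.6 and 18.5 in HepG2 and from 57.9, 63.2 and 61.3 to 47.98, 51.4 and 52.7 in LM3. Its groups are apart in each line by smaller steps (-0.47, adjusted p 2.52e-05, and -0.26, adjusted p 0.0035, or -0.16 in LM3 with median-of-ratios scaling).

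Of the theta class, GSTT2B fell from 12.4, 12.9 and 14.5 to 6.01, 6.87 and 6.15 in HepG2 and from 8.58, 9.33 and 9.50 to 1.53, 1.64 and 2.08 in LM3. No libraries overlap; 47.9% remains in HepG2 (-0.96, adjusted p 1.89e-06) and 19.2% in LM3, where it is called (-1.89, adjusted p 4.27e-07). Without HepG2 siFASRL replicate 2 the HepG2 effect is -1.01, and with a pseudocount of 0.1 it is -1.0506, both past the threshold. GSTT2B shares 90.9% of its 50-base stretches with GSTT2, so the split between these 2 is uncertain. Summed, they went from 13.1, 15.02 and 14.8 to 6.33, 7.08 and 6.47 in HepG2 and from 9.39, 9.97 and 10 to 2.12, 1.95 and 2.08 in LM3. GSTT2 alone was at 0.67, 2.13 and 0.27 in HepG2 siNC, with replicate 2 far above the others, and at 0 to 0.81 elsewhere. GSTT1 fell to 68.8% of siNC in HepG2 (-0.52) and to 75.03% in LM3 (-0.39).

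GSTA4, which clears aldehydes of lipid peroxidation, fell from 7.74, 7.19 and 7.53 to 4.25, 4.0 and 4.79 in HepG2 and from 4.16, 3.64 and 3.73 to 1.01, 1.22 and 1.01 in LM3. The libraries separate in each line, at -0.67 (adjusted p 1.05e-05) and, called, -1.22 (adjusted p 1.18e-06), with 58.1% and 28.1% remaining; under quantile normalization the LM3 effect is -0.85, not called. GSTA1 fell from 1.24, 1.05 and 1.41 to 0.22, 0.08 and 0.08 in HepG2 (-0.99) and passed through siNC alone. Without HepG2 siFASRL replicate 1 or HepG2 siNC replicate 2 the effect is -1.045 or -1.0466, past the threshold, and with a pseudocount of 0.1 it is -2.60. GSTA2 was at 0.29 to 0.50 in HepG2 siNC and 0.06 to 0.10 in HepG2 siFASRL. Both are listed at 0 in all 6 LM3 libraries, and GSTA1 shares 21.7% of its stretches with GSTA2. GSTK1, the mitochondrial and peroxisomal form, fell from 60.1, 60.1 and 61.6 to 37.9, 34.5 and 32.5 in HepG2 and from 81.8, 77.1 and 80.0 to 52.8, 55.6 and 49.3 in LM3. Its effects of -0.78 and -0.59 separate the libraries in each line.

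GSTP1, the pi class form, is the most abundant member in each line. It fell from 195, 206 and 197 to 117, 132 and 127 in HepG2, where no libraries overlap (-0.66, adjusted p 6.63e-06). In LM3 it was at 1280.3, 1535 and 1491 under siNC and 1528, 1699 and 1604 under siFASRL. The LM3 groups overlap at a log2 fold change of 0.17 (adjusted p 0.0773), whose sign turns to -0.22 under quantile normalization and which is 0.27 with median-of-ratios scaling and 0.09 without LM3 siNC replicate 1. The joint fit of 12 libraries and the replicate block put this effect at an adjusted p of 0.0453 and 0.0378, so its side of the threshold depends on the fit. By replicate number GSTP1 is higher in each LM3 siFASRL library than in its siNC counterpart. Deviations of same-numbered LM3 libraries correlated at -0.082, 0.096 and -0.167, so they are not shown to be pairs.

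Promoter windows are shown for members lower in every HepG2 siFASRL library than in every HepG2 siNC library. Shown are the largest fall (SULT2A1), the members called in both lines (SULT2B1 and GSTM4), and CYP3A5, which holds 3 of the motifs. The pair of GSTA genes at 0 in LM3 is also shown, though in HepG2 GSTA1 is not called and GSTA2 was not tested. All of these members were picked after their values were seen. RefSeq (GRCh38.p14) has windows for 33 of the 42 members, and the 250 bases before the start were searched on both strands for GCGTG (core of the aryl hydrocarbon receptor element), TGANNNNGC (antioxidant element), GTTAAT (half-site of the HNF1 element) and TGACCT (half-site of nuclear receptors). In the windows below, read along the gene, capitals mark matches on either strand; no motifs overlap in them. SULT2A1 is at chr19:47886316-47886565 (minus strand), SULT2B1 at chr19:48551922-48552171 (plus), GSTM4 at chr1:109655849-109656098 (plus), GSTA1 at chr6:52803817-52804066 (minus), GSTA2 at chr6:52763476-52763725 (minus) and CYP3A5 at chr7:99679997-99680246 (minus).
SULT2A1: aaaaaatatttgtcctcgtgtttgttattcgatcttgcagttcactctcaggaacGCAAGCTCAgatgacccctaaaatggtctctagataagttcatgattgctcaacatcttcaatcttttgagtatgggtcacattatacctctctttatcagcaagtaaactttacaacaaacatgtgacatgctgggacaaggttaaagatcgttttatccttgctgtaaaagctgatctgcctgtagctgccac
SULT2B1: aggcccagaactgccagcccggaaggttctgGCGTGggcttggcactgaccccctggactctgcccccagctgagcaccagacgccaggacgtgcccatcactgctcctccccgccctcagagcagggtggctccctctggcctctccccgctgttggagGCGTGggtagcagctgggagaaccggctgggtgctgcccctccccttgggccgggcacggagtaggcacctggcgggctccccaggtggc
GSTM4: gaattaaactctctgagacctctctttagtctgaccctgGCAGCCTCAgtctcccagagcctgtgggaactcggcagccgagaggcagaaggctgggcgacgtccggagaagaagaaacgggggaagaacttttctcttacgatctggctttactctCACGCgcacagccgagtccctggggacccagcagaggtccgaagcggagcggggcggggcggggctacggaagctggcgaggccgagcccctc
GSTA1: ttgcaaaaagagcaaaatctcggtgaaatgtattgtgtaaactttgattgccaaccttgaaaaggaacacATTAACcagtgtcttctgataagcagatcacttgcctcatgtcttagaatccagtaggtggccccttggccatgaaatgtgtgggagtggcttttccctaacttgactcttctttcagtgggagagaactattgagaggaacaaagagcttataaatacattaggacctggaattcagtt
GSTA2: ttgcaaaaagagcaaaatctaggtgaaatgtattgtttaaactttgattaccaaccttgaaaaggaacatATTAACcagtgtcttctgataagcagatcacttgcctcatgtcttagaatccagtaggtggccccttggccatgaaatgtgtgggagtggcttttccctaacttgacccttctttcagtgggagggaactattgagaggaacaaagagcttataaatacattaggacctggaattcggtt
CYP3A5: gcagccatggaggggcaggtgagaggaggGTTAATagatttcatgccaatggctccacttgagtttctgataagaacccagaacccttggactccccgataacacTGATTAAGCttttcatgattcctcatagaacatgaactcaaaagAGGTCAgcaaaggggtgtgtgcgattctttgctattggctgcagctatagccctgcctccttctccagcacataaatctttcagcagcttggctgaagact

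Of all 35116 promoter windows, GCGTG is in 32.2%, TGANNNNGC in 35.2%, GTTAAT in 6.23% and TGACCT in 12.1%. Of the 47 windows of members the shares are 23.4%, 48.9%, 14.9% and 21.3%, in 10, 20, 7 and 9 of the 33 members, some with several windows. The 7 with GTTAAT are CYP3A5, CYP3A7, GSTA1, GSTA2, UGT1A1, UGT1A3 and UGT3A1; in HepG2 the means of UGT1A1 and UGT1A3 rose and those of the other 5 fell. GCGTG is in 1 place in the CYP1A1 window, and in 2 places in windows of SULT2B1, CYP2W1, CYP20A1 and UGT8. The GSTA1 and GSTA2 windows agree at 243 of 250 bases, and each holds GTTAAT at the same place, from -180 to -175 counted from the start. A match is only a description of the letters.

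At baseline the lines were compared as LM3 siNC against HepG2 siNC, with the same siNC libraries that serve as controls above. Of the 42 members, 32 passed the filter, 11 of them through 1 line alone. There, 15 of 32 are called lower in LM3, beside 15.6% of the 8176 genes tested, and 4 are called higher, beside 7.74%. All 11 that passed through 1 line alone are called. Among the 18 at 1 or more in all 6 libraries 4 are called lower and 3 higher. Without LM3 siNC replicate 1, GSTT1 drops from -1.06 to -0.9956 and is not called; without HepG2 siNC replicate 1, HepG2 siNC replicate 3 or LM3 siNC replicate 3, CYP2R1 goes from -0.99 to -1.03, -1.02 or -1.05 and is. The median is -0.95, against 0.00 over all genes tested, and -0.54 over those 18.

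**Figure D5:**
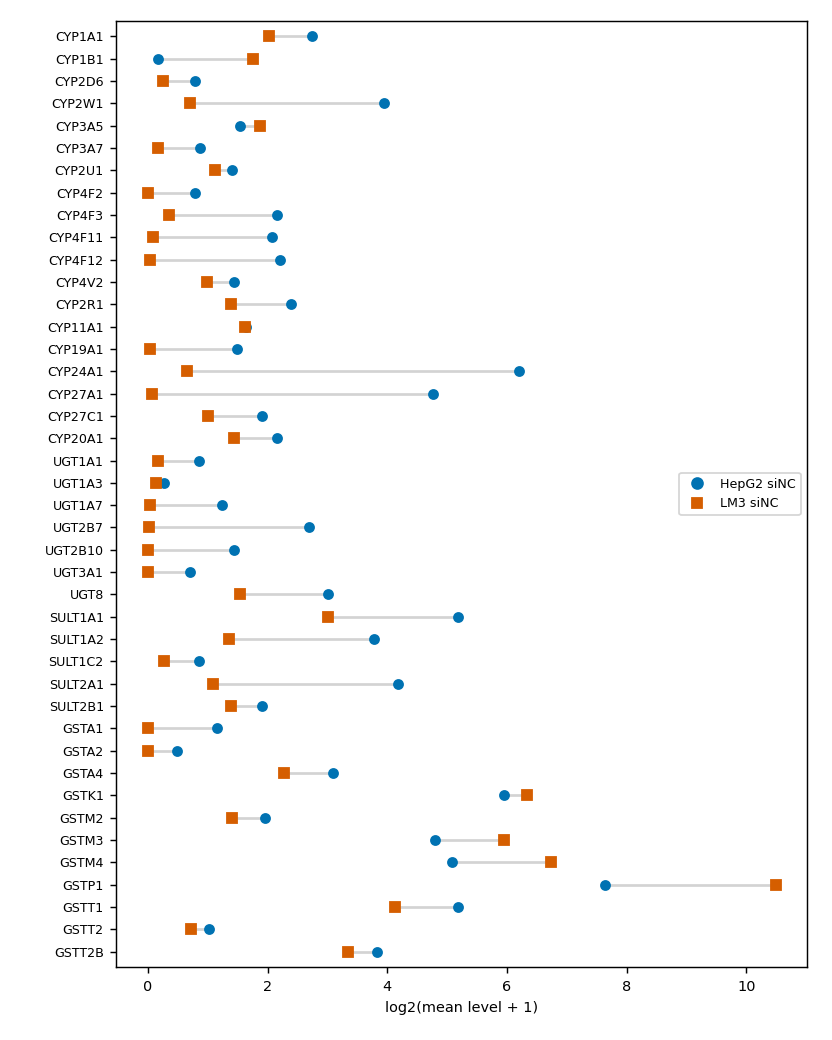
Mean level of each member in HepG2 siNC (circles) and LM3 siNC (squares), as log2(mean level + 1).

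The members called higher in LM3 are GSTP1, GSTM4, GSTM3 and CYP1B1, the last of which passed the filter through LM3 alone. GSTP1 is 7.21-fold higher in LM3 by the means (log2 difference 2.84, adjusted p 8.30e-09), from the levels given above. GSTM4 is 3.19-fold higher (1.65, adjusted p 2.55e-07). CYP1B1 was at 0.12, 0.14 and 0.12 in HepG2 siNC against 2.35, 2.49 and 2.32 in LM3 siNC, all LM3 libraries above all HepG2 libraries (1.59, adjusted p 2.39e-08). GSTM3 is 2.27-fold higher (1.15, adjusted p 2.79e-07). CYP3A5 and GSTK1 are also higher in LM3, by 0.33 and 0.39, below the fold threshold.

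The largest called differences the other way are, by log2 difference, CYP24A1 (-5.54, adjusted p 2.48e-10), CYP27A1 (-4.68, adjusted p 1.24e-09) and CYP2W1 (-3.24, adjusted p 2.22e-09). SULT2A1 (-3.09, adjusted p 4.43e-09) and UGT2B7 (-2.69, adjusted p 1.30e-09) follow. SULT1A2 (-2.41), SULT1A1 (-2.20) and CYP4F12 (-2.16) come next. Of these 8, CYP24A1, CYP27A1, CYP2W1, UGT2B7 and CYP4F12 passed the filter through HepG2 alone, so they had to differ. UGT2B7, CYP27A1 and CYP4F12 are at or near 0 in LM3, whereas SULT1A1 is still at 5.81 to 7.91. CYP11A1 was at 1.90 to 2.32 in HepG2 siNC and 1.96 to 2.27 in LM3 siNC, and the test gives -0.01. Quantile normalization lowers the baseline count from 15 to 12, beside 1278 to 1006 over all genes tested. It turns the sign of CYP2U1, CYP4V2, GSTM2, SULT2B1 and CYP11A1, whose main effects are between -0.58 and -0.01.

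Whether the knockdown effect differs between lines was tested as an interaction over all 12 libraries, in which 34 members passed the filter. The difference (LM3 minus HepG2) is called above 0 for 4 of them, beside 2.31% of the 8285 genes tested, and below 0 for 0, beside 2.53%, where limma gives 6 at an unadjusted p under 0.05. The 4 are SULT2A1 (2.33), CYP27A1 (1.84), CYP2W1 (1.68) and CYP4F11 (1.46), each of which is low in LM3 before knockdown. A log2 change of (level + 1) cannot fall far from such levels. By adjusted p alone 15 are above 0 and 6 below, against 19.5% and 27.2% of all genes, and 10 of these 21 are below 0.5 in every LM3 library, so their difference is set mostly by the HepG2 effect. GSTM4, abundant in both lines, differs by 0.06 (adjusted p 0.6726), CYP3A5 by 0.14 (adjusted p 0.3696) and CYP2U1 by -0.06 (adjusted p 0.5170). GSTT2B (-0.93, adjusted p 2.41e-05) and GSTA4 (-0.55, adjusted p 3.59e-04) fell more in LM3. GSTP1 (0.83, adjusted p 2.40e-05) fell in HepG2, while its LM3 groups overlap (0.17, or -0.22 under quantile normalization).

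Members that lie within 1 Mb of each other form 10 clusters in RefSeq. The 4 CYP4F genes span 294 kb of chromosome 19; the 3 tested are called lower in HepG2, and CYP4F2 was not tested. The 3 GSTM genes span 84.9 kb of chromosome 1 and fell in both lines. The 3 UGT1A genes span 91.4 kb of chromosome 2 and their HepG2 means rose. UGT2B7 and UGT2B10, 297 kb across on chromosome 4, moved in opposite directions in HepG2 (0.33 and -0.80). CYP1A1 and CYP11A1, within 388 kb of chromosome 15, also did (-0.40 and 0.59).

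Other genes of the pathway were taken from a list of 94, of which 60 are listed. In HepG2, 56 were tested, with 4 called higher, 15 lower and a median of -0.56, beside 3.61%, 6.79% and 0.10 over all genes tested. In LM3, 40 were tested, with 2 called higher, 6 lower and a median of -0.58, beside 1.42%, 6.2% and -0.06. The shares of all genes apply to each smaller list below, whose few genes allow no finer reading. Of the transcription factors, 5 of 17 tested in HepG2 are called lower: NR1H4 (-2.39), NR0B2 (-1.51), DBP (-1.22), CEBPA (-1.12) and HNF4A (-1.05), and AHR (1.14) and CEBPB (1.11) are called higher. In LM3, 0 of 10 are called. There limma gives 9 with an adjusted p under 0.05, 3 higher and 6 lower, among them HNF4A (-0.9976, adjusted p 5.66e-06). By adjusted p alone 33.9% of all genes tested in LM3 are higher and 43.5% lower, so most genes pass this rule. Electron donors were tested for 5 genes with 0 called in either line by limma. An adjusted p under 0.05 is given to 5 in each line (3 higher and 2 lower in HepG2, 2 and 3 in LM3). In HepG2 the shares of all genes by that rule are 44.8% higher and 44.3% lower, so these counts are not particular to the donors. FDXR was at 0.37 in HepG2 and -0.9997 in LM3. Among cofactor enzymes PAPSS2, which makes the sulfate donor, is called higher in both lines (1.13 and 1.14), while PAPSS1 fell (-0.74 and -0.91) in both. Of the subunits of the enzyme that starts glutathione synthesis, GCLC fell in both (-0.67 and -0.64), and GCLM rose in HepG2 (0.30, adjusted p 0.0111) and fell in LM3 (-0.34).

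Of the other oxidizing, reducing and hydrolyzing enzymes, 5 of 11 are called lower in HepG2 (FMO5, AKR1B10, EPHX2, AKR1C1 and AKR1C2) and 2 of 5 in LM3 (CBR3 and CES2). The membrane glutathione transferase MGST3, outside the symbol rule, is called lower in both (-1.03 and -1.28), beside MGST2 at -0.87 and -0.89. MGST1 is not called in either line (0.11 in HepG2 and -0.16 in LM3). NNMT, a methyltransferase, is called higher in both (1.03 and 1.43). Of 8 transporters tested in HepG2, 4 are called lower: SLCO2B1 (-2.04), SLC47A1 (-1.82), ABCC6 (-1.37) and SLC22A7 (-1.37). In LM3, 3 of 5 are called lower: ABCC6 (-1.33), SLCO2B1 (-1.11) and SLC47A1 (-1.08). SLCO2B1 and SLC22A7 in HepG2, ABCC6 and SLCO2B1 in LM3, and EPHX2 in HepG2 passed the filter through siNC alone, so these counts are biased toward a difference.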

How the data were processed

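The 12 libraries are poly(A)-selected RNA of 2 cell lines, HepG2 and LM3, each with siFASRL or siNC, 3 per group. The authors mapped reads with HISAT2 and Bowtie2 and computed RSEM expression; the deposited signal is a normalized level per gene with 2 decimals, FPKM or TPM not stated. The labels name hg19, while the chromosome accessions belong to GRCh38, and promoter windows are from RefSeq GRCh38.p14. Depth per library is not analysed here, so no counting intervals are given. In the file for HepG2 siFASRL replicate 3, 6 further columns duplicate LM3 values and were left aside. Groups come from the sample labels.

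Values were fitted with limma 3.58.1 (R 4.3.3) on log2(value + 1) over all listed genes at 1 or more in at least 3 libraries of the fit, with Benjamini-Hochberg adjustment; a gene is called where the log2 fold change is 1 or more in size with adjusted p below 0.05. The code was tested on simulated data. Exact permutation of 3 against 3 libraries gives no p below 0.1 and was not used. Alternatives were a pseudocount of 0.1, no filter, a mean of at least 5, median-of-ratios scaling, quantile normalization, a joint fit of 12 libraries, a replicate block, and leaving out each replicate. The authors tested with DESeq2, which needs counts.

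Genes given in every library are, by rule, members called after knockdown (up to 10 per direction and line), the 8 largest called baseline differences in each direction, up to 6 called for the difference between lines, and the highest member of each family in each line under siNC: 20 genes. The other members were described after their values were seen. The members and lists were chosen with earlier results of these data known. Shared stretches are 50-base runs of GENCODE v29 transcripts also found in another gene, for the 41 members present there.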

Additional observations from a re-analysis of the deposited data

Results flagged for a closer look

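The knockdown effect differed between LM3 and HepG2 for 21 of the 34 members tested, by the limma interaction term with an adjusted p under 0.05 (from 5.77e-08 to 0.0425). The background over all genes tested is 19.5% above 0 and 27.2% below 0, and 15 members are above 0 and 6 below. Values are the log2 effect in LM3 minus that in HepG2. Above 0 are SULT2A1 (2.33), CYP27A1 (1.84), CYP2W1 (1.68), CYP4F11 (1.46), CYP4F3 (1.0), GSTA1 (0.99), CYP4F12 (0.98), CYP19A1 (0.97), SULT1A2 (0.93), GSTP1 (0.83) and UGT2B10 (0.81). SULT1A1 (0.65), CYP20A1 (0.42), SULT2B1 (0.40) and GSTM3 (0.21) follow. Below 0 are UGT1A1 (-0.94), GSTT2B (-0.93), UGT1A7 (-0.70), GSTA4 (-0.55), UGT2B7 (-0.33) and CYP11A1 (-0.30). Of these, 10 are below 0.5 in every LM3 library: GSTA1 (listed at 0), UGT2B10, CYP19A1, UGT2B7, UGT1A7, CYP4F11, CYP4F12, CYP27A1, UGT1A1 and CYP4F3. They entered through HepG2, so their difference is set mostly by the HepG2 effect. CYP2W1 and SULT2A1 are also low in LM3, at 0.71 and 1.35 or less. No group has more than 3 libraries, so single libraries were not tested for standing apart.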

How the results depend on the processing

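In this balanced design neither a replicate block nor the joint fit of 12 libraries can alter a log2 fold change, so the medians could not move. Only the p-values can change under them. The counts of called members stayed as they were, with 10 lower in HepG2, 4 in LM3 and 15 at baseline under the replicate block. The joint fit covers 3 comparisons, because the difference between lines is already such a fit. By adjusted p alone the replicate block adds GSTP1 in LM3 (0.0378; joint fit 0.0453) and UGT8 for the difference (0.0170). Deviations of same-numbered libraries correlated at 0.325, 0.377 and -0.208 in HepG2 and at -0.082, 0.096 and -0.167 in LM3, and at 0.465, 0.553 and -0.295 between the siNC libraries of the lines. Their signs are mixed, so the unpaired fit is used and the paired one is given here. Median-of-ratios scaling kept the counts within 1.5 times and lost the LM3 call of SULT2B1 (-0.9874).

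With a pseudocount of 0.1 the members called lower rise from 10 to 15 of 33 in HepG2 (CYP19A1, GSTA1, GSTT2B, SULT1A1 and UGT2B10 gained). They rise from 4 to 7 of 19 in LM3 (CYP2U1, CYP3A5 and GSTM2 gained) and from 15 to 17 of 32 at baseline (CYP27C1 and CYP2R1 gained). Over all genes tested, those called lower rise from 553 to 957 of 8144, from 464 to 753 of 7483 and from 1278 to 1455 of 8176. Members called higher in HepG2 go from 0 to 2 (UGT1A1 and UGT1A7), beside 294 to 416 of all genes. Member calls for the difference between lines go from 4 to 8 above 0 and from 0 to 3 below, beside 191 to 284 and 210 to 380. The medians are -0.99 in HepG2, -0.65 in LM3 and -1.22 at baseline, against 0.11, -0.07 and 0.00 over all genes tested. This setting gives more weight to low values by construction. With no filter the medians are -0.67, -0.17 and -0.72, against 0.08, -0.06 and -0.03 over all listed genes. The members called lower at baseline then rise from 15 to 16 (UGT1A7 gained), beside 1294 of the 8842 listed genes. With a mean of at least 5, fewer members are tested, and 5 of 15 are called lower in HepG2, 2 of 7 in LM3 and 7 of 13 at baseline. Over all genes tested those counts are 364 of 6367, 276 of 5937 and 754 of 6416. For the difference 2 of 10 members are called above 0, beside 84 of 6320 genes. The baseline median is then -1.06, against 0.08 over all genes tested. Under quantile normalization 2 members are called higher in HepG2 (UGT1A1 and UGT1A7) and 8 lower, beside 384 and 433 of 8144 genes. Of the 8, 7 are among the 10 (CYP3A5, CYP4F3 and CYP4F12 are lost and SULT1A1 gained). In LM3 2 are called lower (GSTA4 and SULT2B1 are lost), beside 262 of 7483 genes, and at baseline 12, beside 1006 of 8176. For the difference 2 are below 0, beside 199 of 8285 genes. The medians are -0.63, -0.24 and -0.52, against 0.05, 0.03 and 0.14 over all genes tested. The cause was not tested.

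Leaving out each replicate gave 10 to 13 members called lower in HepG2, 3 to 5 in LM3, and 14 to 16 at baseline, 4 to 6 above 0 and 0 to 1 below 0 for the difference, with medians from -0.84 to -0.73, -0.53 to -0.45 and -0.97 to -0.92. Over all genes tested, 558 to 581 of 8144 were called lower in HepG2, 453 to 488 of 7483 in LM3 and 1267 to 1294 of 8176 at baseline. For the difference 190 to 213 of 8285 were above 0 and 198 to 224 below. The 1 member below 0 is UGT1A1 without HepG2 siFASRL replicate 2 or HepG2 siNC replicate 3, and GSTT2B without LM3 siFASRL replicate 3.

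The 20 named genes were chosen largely because they were called in these data. No filter, a mean of at least 5, the joint fit and the replicate block do not alter a log2 fold change. Their 71, 37, 51 and 71 values could therefore not change direction or pass the fold threshold, and all stayed the same. With these included, 945 of 989 values over 71 effects and their alternatives kept direction and side of the threshold, 9 dropped below it, 26 passed it and 9 changed sign. Of the last, the difference between lines accounts for CYP1A1 (0.15, quantile normalization), CYP1B1 (-0.44, pseudocount 0.1), CYP24A1 (0.22 with pseudocount 0.1, 0.43 under quantile normalization, and from -0.0778 to 0.0460 with a replicate left out, above 0 without HepG2 siNC replicate 3 or LM3 siNC replicate 2) and GSTM4 (from -0.0035 to 0.1273 with a replicate left out, below 0 without HepG2 siNC replicate 3). Under quantile normalization GSTP1 in LM3 turned to -0.22 and SULT2B1 at baseline to 0.14. The cause was not tested. Levels are given with 2 decimals, so values near 0 carry few digits; depth is unknown.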
